A study of Mus musculus with 6 samples.

Results

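The genes described here are the antisense genes of AML12 cells, that is, genes that the deposited table gives the biotype antisense, together with the protein-coding gene that each overlaps on the other strand. An antisense gene entered when its counts summed over the 6 libraries reached 10, which 1205 of the 2826 antisense genes did, out of 54532 genes in the table. Of the others, 1175 had no count and 446 had 1 to 9. The genes were thus chosen by their summed count over both groups and not by the difference between them. At the edge of the rule, the 29 genes with a summed count of exactly 9 had a median of 7 counts in the PA/OA libraries and 2 in the PP libraries, and the 30 genes with exactly 10 had medians of 8 and 2. A partner on the other strand, called the sense partner below, was found for 1140 of the 1205 genes. These were 1035 distinct protein-coding genes, since 83 partners were shared by 2 or more antisense genes, and 119 antisense genes overlapped more than 1 protein-coding gene, up to 24. For those, the partner is the gene sharing most bases.

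AML12 is an immortalized mouse hepatocyte line. According to the labels, the cells were wild type in all libraries compared here and no library carries a further genetic change. One group of 3 libraries came from cells given PA/OA for 24 h (PA at 400 nM and OA at 800 nM, the reagent that the submitters used to make the model), and the other group of 3 from cells labelled PP for 24 h, at 250 μg/ml. The series title speaks of peptides from Camellia oleifera meal, and its design text does not settle whether the PP cells also received PA/OA. An untreated group that the design text mentions was not analysed here. Whether the 3 libraries of a group stand for independent cultures is not given, and p-values then describe only how far these libraries scatter, possibly for technical reasons alone.

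Antisense transcription is the copying of the strand opposite a gene. Antisense RNAs often begin near the promoter of the sense gene and run away from it, or begin within its introns. Many are short-lived nuclear transcripts that the RNA exosome degrades and that Integrator and the cleavage and polyadenylation machinery end early, whereas a few, such as Kcnq1ot1 and Airn, silence imprinted neighbours on the same chromosome. In liver cells, an antisense transcript has been described opposite the hepatocyte factor Hnf4a.

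Total counts in genes ran from 24113169 to 27418502 in 4 of the 6 libraries, and reached 31832239 and 32560589 in PP replicates 3 and 2. Levels below are counts scaled to library size (CPM) after edgeR's TMM scaling, and fold changes are PP minus PA/OA on the log2 scale. Of the hepatocyte markers, Krt8, Krt18, Apob and Hnf4a were present, Alb lay between 8.94 and 13.4 CPM, and Cps1 and Serpina1a were at or near 0. The cholangiocyte keratins Krt19 and Krt7 were high while Epcam was at 0. Among 5 macrophage markers, Adgre1 and Clec4f were at 0 and the summed level, nearly all Cd68, was 3.13 to 3.79 CPM in PA/OA and 26.6 to 29.5 CPM in PP. What part that difference has in the results below was not tested.

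The sequences around the start sites of 6 genes are shown because their levels carry the main patterns below. They are the most counted antisense gene (Kcnq1ot1), an antisense gene that rose while its partner fell (Tug1 with Morc2a, and 1700084E18Rik with Lrrc8a), and an antisense gene inside its partner that was almost lost in PP (Egfros). Each is the RefSeq window from 250 bases before to 50 bases after a start site (GRCm38.p6, 5′ to 3′ on the gene's own strand). Of the 1205 antisense genes, 462 had a window by symbol. Capitals mark matches, on either strand, to the CCAAT box (CCAAT), the TATA box (TATAAA), the E-box (CACGTG) and the ETS motif (CCGGAAG).
Kcnq1ot1, chr7:143296498-143296797, minus strand: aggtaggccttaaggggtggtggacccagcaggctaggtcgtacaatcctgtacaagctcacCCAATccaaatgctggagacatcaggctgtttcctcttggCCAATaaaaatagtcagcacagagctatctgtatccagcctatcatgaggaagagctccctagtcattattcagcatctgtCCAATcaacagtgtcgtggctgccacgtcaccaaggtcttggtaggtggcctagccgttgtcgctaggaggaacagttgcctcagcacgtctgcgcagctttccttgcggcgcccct
Tug1, chr11:3648765-3649064, minus strand: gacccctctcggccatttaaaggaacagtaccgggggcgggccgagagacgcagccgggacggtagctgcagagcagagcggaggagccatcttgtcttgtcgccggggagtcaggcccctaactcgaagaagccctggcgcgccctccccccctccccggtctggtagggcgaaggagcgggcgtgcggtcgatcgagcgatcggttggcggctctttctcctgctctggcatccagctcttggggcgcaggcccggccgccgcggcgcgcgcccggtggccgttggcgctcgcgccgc
Morc2a, chr11:3649187-3649486, plus strand: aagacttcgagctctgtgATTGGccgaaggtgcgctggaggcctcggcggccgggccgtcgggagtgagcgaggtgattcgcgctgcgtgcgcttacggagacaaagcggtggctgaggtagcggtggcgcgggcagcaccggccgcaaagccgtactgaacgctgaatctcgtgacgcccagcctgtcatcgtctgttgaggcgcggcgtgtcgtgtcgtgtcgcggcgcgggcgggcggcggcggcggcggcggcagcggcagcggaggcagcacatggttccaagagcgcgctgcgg
1700084E18Rik, chr2:30237582-30237881, minus strand: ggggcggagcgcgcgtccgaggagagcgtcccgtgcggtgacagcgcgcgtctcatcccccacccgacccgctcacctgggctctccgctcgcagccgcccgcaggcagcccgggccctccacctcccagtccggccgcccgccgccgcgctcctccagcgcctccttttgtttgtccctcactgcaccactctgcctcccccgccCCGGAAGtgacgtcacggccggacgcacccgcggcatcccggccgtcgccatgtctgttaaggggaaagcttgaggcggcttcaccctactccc
Lrrc8a, chr2:30237519-30237818, plus strand: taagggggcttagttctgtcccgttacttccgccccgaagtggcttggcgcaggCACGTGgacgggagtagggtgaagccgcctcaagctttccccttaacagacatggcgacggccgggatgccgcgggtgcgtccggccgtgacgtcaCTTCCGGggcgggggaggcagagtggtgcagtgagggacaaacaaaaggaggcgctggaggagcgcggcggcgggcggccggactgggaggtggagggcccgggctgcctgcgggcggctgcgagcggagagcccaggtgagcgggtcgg
Egfros, chr11:16830629-16830928, minus strand: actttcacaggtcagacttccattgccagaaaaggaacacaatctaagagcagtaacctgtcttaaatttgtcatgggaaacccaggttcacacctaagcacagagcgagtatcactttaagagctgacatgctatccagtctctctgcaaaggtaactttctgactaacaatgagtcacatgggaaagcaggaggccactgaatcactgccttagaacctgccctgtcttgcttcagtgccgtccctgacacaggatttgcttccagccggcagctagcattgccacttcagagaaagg

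The Kcnq1ot1 window held 3 CCAAT boxes. At least 1 such box was in 37.4% of all 32851 RefSeq windows and in 30.6% of the 571 windows of antisense genes. Tug1 and Morc2a had 37 and 46 CpG dinucleotides in their windows and the median over all windows was 7. The Egfros window had 3 CpG and none of the motifs searched, which says only that these letters were not in this window. The windows of 1700084E18Rik and Lrrc8a shared 237 bases read from opposite strands, so that 1 ETS match appears in both, and ETS matches were in 8.86% of all windows. RefSeq puts the starts of that pair 138 bases apart and those of Tug1 and Morc2a 623 bases apart, in both cases pointing away from each other. In the deposited table the models of Tug1 and 1700084E18Rik begin 859 and 592 bases further upstream than in RefSeq, that of Lrrc8a 54 bases further upstream and that of Morc2a 57 bases further inside the gene, and both pairs of models overlap at their 5′ ends.

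What an antisense count holds had to be settled first, since neither the labels nor the table say whether reads were assigned by strand. Exons were taken from GENCODE M21 (mouse GRCm38), which holds 54495 of the 54532 genes, 98.3% with the same span. All 486 genes whose exons lay wholly under exons of genes on the other strand had no count in any library. They comprised 138 miRNA genes, 74 antisense genes, 37 protein-coding genes and 29 lincRNA genes among others. Of these 486 genes, 114 were covered by a gene with 5000 or more counts, and these too were all at 0. Among the 139 genes covered for more than 90% but not wholly, 107 had no count, and the highest summed count was 129. Counts thus behaved as if reads lying in exons of both strands were left out, so that an antisense gene's count comes from its exon bases outside the exons of genes on the other strand. Reads from introns of the sense partner that fall on these bases cannot be told apart from antisense reads.

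**Figure D1:**
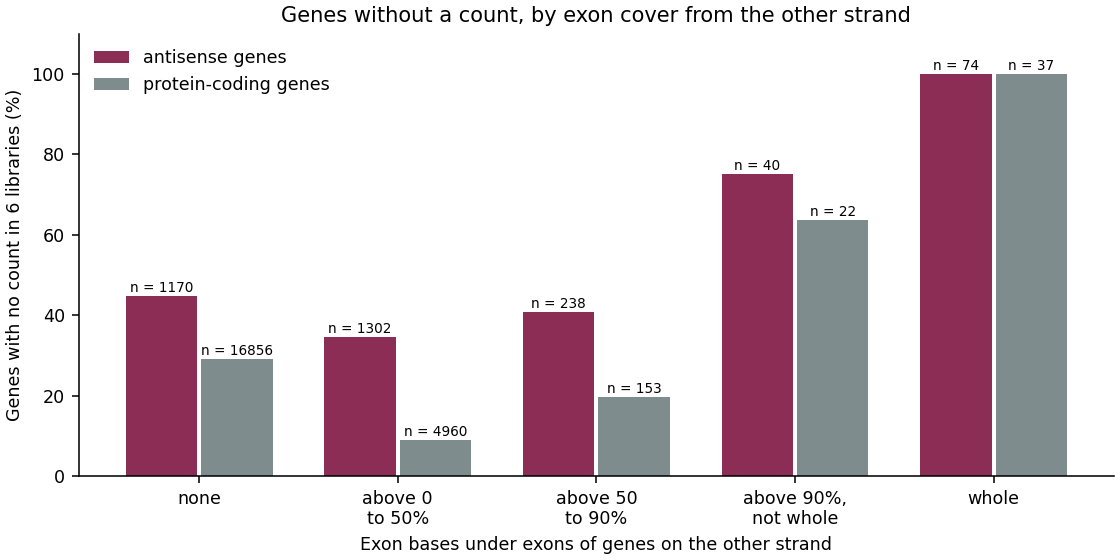
The x axis groups genes by the share of their exon bases that lies under exons of genes on the other strand, and the y axis gives the percent of genes with no count in the 6 libraries. Bars stand for antisense and protein-coding genes with the number of genes above them. All 74 antisense and all 37 protein-coding genes that were wholly covered are at 100%, and of antisense genes with no cover 44.7% had no count.

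The stretches at the edge of a shared exon show what this means for single genes. Lower case letters are antisense exon bases outside the partner's exons, which could be counted, and capitals are the 30 bases that lie under the partner's exon, which could not. They were read from GENCODE M21 transcripts, 5′ to 3′ on the antisense strand.
Gm16754 at Keap1, chr9:21231190-21231279, plus strand: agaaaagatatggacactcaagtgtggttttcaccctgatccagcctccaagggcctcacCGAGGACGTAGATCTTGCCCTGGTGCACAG
4930483K19Rik at Lss, chr10:76546182-76546271, minus strand: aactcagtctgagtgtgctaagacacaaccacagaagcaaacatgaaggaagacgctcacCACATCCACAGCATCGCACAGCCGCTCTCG
Both antisense transcripts run without a break from an intron of the partner into its exon. The lower case part ends in ac at both edges, which on the partner's strand is gt, the letters with which an intron begins. The share of antisense exon bases under the partner's exons was 19.5% for Gm16754 and 30.8% for 4930483K19Rik.

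By layout, 685 of the 1205 antisense genes lay inside their partner, 364 of them without a shared exon base and 321 with shared exon bases. Another 220 overlapped the partner at the 5′ ends, 204 at the 3′ ends, 31 held the partner inside their own span and 65 had no partner. The genes had a median exon length of 1072 bases and a median summed count of 57. Only 30 had 1000 counts or more, and 558 had under 50. Per length, the antisense gene reached a median of 9.52% of its partner's CPM per kb in PA/OA and 2.17% in PP over the 1140 pairs. It was the higher of the pair in 110 pairs in PA/OA and 101 in PP. Lengths here and for single pairs below are all exon bases of a gene. They include bases under exons of the other strand, which could not be counted.

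Antisense genes held a smaller part of the counts in PP than in PA/OA. All 2826 took 0.205%, 0.197% and 0.200% of counts in PA/OA replicates 1, 2 and 3, and 0.0922%, 0.0864% and 0.0880% in PP replicates 1, 2 and 3. The groups did not overlap, and the mean share was 0.201% ± 0.00417 against 0.0889% ± 0.00301 (SD, n = 3 each; two-sided exact permutation p = 0.1, the smallest that 3 against 3 allows). The number of antisense genes with a count was 1356 to 1393 in PA/OA and 927 to 936 in PP. PP libraries had more counts in total. The TMM factors that multiply those totals went the other way, 1.15 to 1.17 in PA/OA and 0.849 to 0.867 in PP. Protein-coding genes with a count numbered 14303 to 14561 in PA/OA and 13488 to 13694 in PP. TEC genes with a count numbered 1350 to 1394 in PA/OA and 897 to 939 in PP. Sense partners of the 1205 genes took 8.06% ± 0.0883 of counts in PA/OA and 7.96% ± 0.102 in PP (exact permutation p = 0.4).

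The share of counts was lower in PP in each of the 6 layouts, with ratios of PP over PA/OA between 0.324 and 0.685. Genes inside their partner with shared exons took 0.0634% ± 0.00135 of counts in PA/OA and 0.0206% ± 0.00141 in PP, a ratio of 0.324 that became 0.427 without Kcnq1ot1, which held 43.4% of this layout's counts in PA/OA. Genes inside their partner without a shared exon took 0.0475% ± 0.000664 of counts in PA/OA and 0.0159% ± 0.000868 in PP, a ratio of 0.334, while the 325 partners of these genes went from 2.66% to 2.34%, a ratio of 0.88. The 5′ overlapping genes went from 0.0393% to 0.0226%, a ratio of 0.576 that became 0.372 without Tug1, and the 3′ overlapping genes from 0.0340% to 0.0201%, a ratio of 0.590.

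As a part of the counts of the 1205 genes, the inside layout with shared exons held 31.9% ± 0.379 in PA/OA and 23.3% ± 0.787 in PP. Without Kcnq1ot1 these parts were 20.9% and 18.4%. The inside layout without a shared exon held 23.9% ± 0.168 and then 17.9% ± 0.445. The 3′ overlapping genes held 17.1% ± 0.407 and then 22.7% ± 0.123. The part of the 5′ overlapping genes, 19.7% ± 0.167 and then 25.6% ± 0.925, rested on Tug1, which held 32.8% of their counts in PA/OA and 56.7% in PP. Without Tug1 that part was 14.2% ± 0.101 in PA/OA and 13.0% ± 0.15 in PP. The groups did not overlap in any of these parts (SD, n = 3 each; exact permutation p = 0.1, the smallest possible). Of the 1205 genes, 157 had no count in any PP library and 1 had none in any PA/OA library, and 70 of the 157 were of the inside layout without a shared exon. Sense intronic genes, which lie in introns on the same strand as their host, had a ratio of 0.396, and TEC genes, unconfirmed gene models, 0.452.

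**Figure D2:**
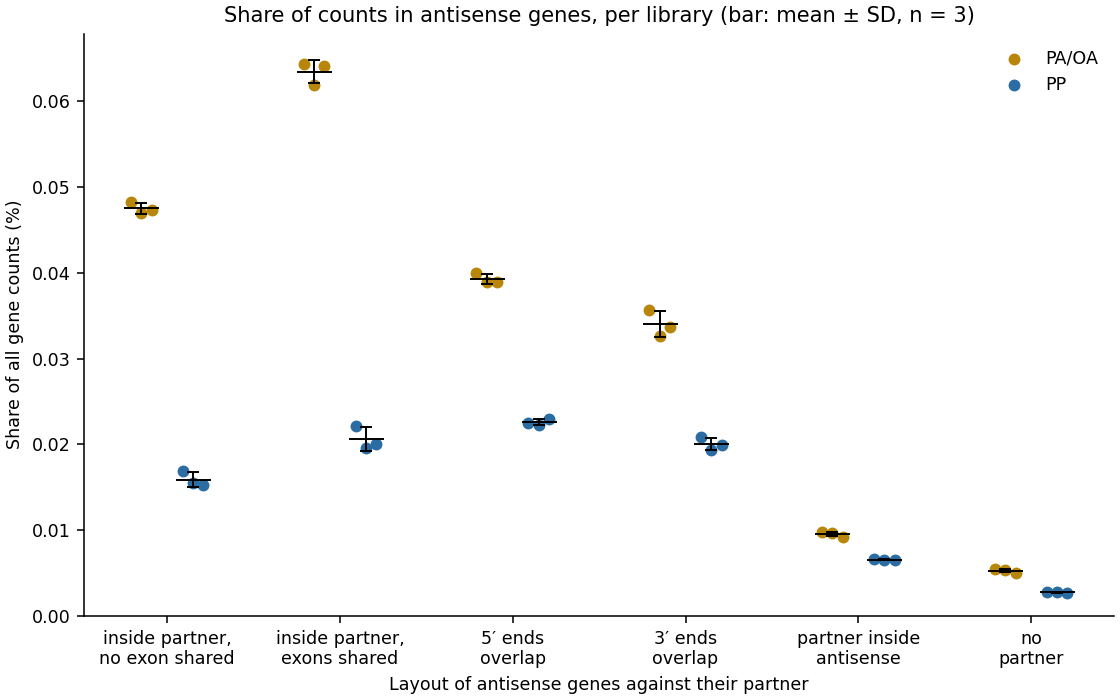
The y axis gives the percent of each library's gene counts in antisense genes of each layout, and the x axis the layout. Points are libraries, bars mean ± SD (n = 3). PA/OA and PP libraries are apart in every layout shown, from 0.0475% against 0.0159% for genes inside their partner without a shared exon to 0.0053% against 0.00276% for genes with no partner.

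In the test per gene (edgeR quasi-likelihood, adjusted p under 0.05 over all 15718 genes tested), 626 of the 1205 antisense genes had counts enough to be tested. Lower in PP were 361, higher 50 and not called 215. Over all genes tested, 39.9% were lower and 35.1% higher, and 75% were called either way. The antisense genes' median change was -1.40 against -0.09 for all genes and 0.04 for protein-coding genes. Other noncoding classes also had low medians, -2.21 for TEC genes (74.4% lower), -1.86 for sense intronic genes (72.4% lower) and -1.10 for lincRNA genes (56.0% lower). Among those called, 341 fell at least 2-fold and 36 rose at least 2-fold, out of 626 tested. Over all 15718 genes tested, 3853 were called and fell that far and 1907 rose that far. Of 863 TEC genes tested, 605 fell and 39 rose that far. Since genes high in 1 group only can pass the filter through that group, the fit was also made without a filter, where all 1205 genes entered. Then 535 were lower and 54 higher, with a median of -1.60, or -1.57 with genes at 0 in a group set to their bound, and 26.1% and 20.3% of 27971 genes were lower and higher. Those 27971 genes needed only 1 summed count where the antisense genes had 10 or more, so these shares are not like for like. Scaling by library size alone moved the median of all genes from -0.09 to -0.52 and upper-quartile scaling moved it to -0.32. Relative to that median the antisense genes stood at -1.31 under each of the 3 scalings. A scaling shifts all genes of a library alike, so this value could hardly differ between them.

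The change also moved with abundance, for all kinds of genes. With each library's trend with abundance removed, 221 antisense genes were lower and 135 higher, with a median of -0.31, against 36.4% lower and 36.1% higher, 72.6% in all, of all genes tested. Within bands of average level, antisense genes of average log2 CPM -2 to -1 had a median change of -2.69 where protein-coding genes of that band had -1.63, and in the band from 0 to 1 the medians were -0.99 and -0.68. In the band from 2 to 3 the order was reversed, -0.23 for 30 antisense genes and -0.43 for protein-coding genes. At log2 CPM 3 to 5 the 17 antisense genes had a median of 0.23 and the protein-coding genes -0.15. All bands hold only genes that passed the filter. In the lowest band a gene could pass through 1 group alone, which favours large changes there. Medians of that band therefore cannot be read free of the filter, and bands without a filter were not made.

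Split by layout, the genes inside their partner without a shared exon had 140 of 199 tested lower and 6 higher, with a median of -2.39. Those inside their partner with shared exons had 85 of 161 lower and 15 higher (median -1.23), the 5′ overlapping genes 67 of 113 lower and 9 higher (median -1.40), and the 3′ overlapping genes 46 of 102 lower and 11 higher (median -0.65). Over all genes tested, 39.9% were lower and 35.1% higher. Without a filter the medians of these layouts, in the same order, were -2.52, -1.46, -1.49 and -1.19, which lie closer together. With genes at 0 in a group set to their bound, the first of these was -2.15 and the others did not change. With the abundance trend removed, the inside genes without a shared exon had 93 lower and 23 higher and a median of -1.12. The 5′ overlapping genes then had 34 lower and 19 higher (median -0.32), the inside genes with shared exons 57 lower and 42 higher (median -0.08), and the 3′ overlapping genes turned to 22 lower and 34 higher (median 0.13). Genes of 1 exon had a median of -0.89 and genes of several exons -1.44. Of the 955 sense partners tested, 45.2% were called higher (432) and 35.7% lower (341), and their median was 0.07. Protein-coding genes were close to this, at 41.3% and 36.6% and a median of 0.04. Under library size alone the partners turned to 248 higher and 545 lower. That is 57.1% lower, where 56.7% of all genes and 55.7% of protein-coding genes were lower. Under upper-quartile scaling the partners turned to 319 and 438. That is 45.9% lower, where 48.9% of all genes and 46.8% of protein-coding genes were.

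**Figure D3:**
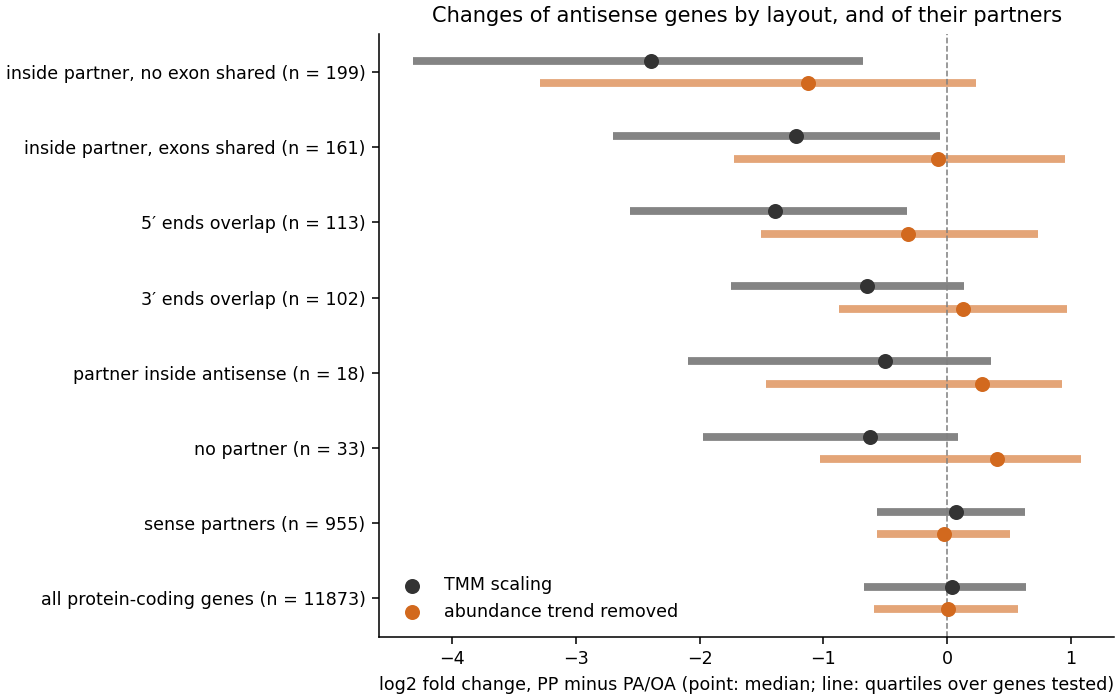
The x axis gives the log2 fold change (PP minus PA/OA), with the median as a point and the quartiles over tested genes as a line, for each layout of antisense genes, for sense partners and for all protein-coding genes. Dark marks are TMM scaling and orange marks the fit with the abundance trend removed. The median of genes inside their partner without a shared exon is lowest in both, -2.39 and -1.12.

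The changes of antisense genes and their partners were set side by side for the 568 pairs in which both genes were tested. Both fell in 135 pairs and both rose in 27. The antisense gene fell while the sense gene rose in 138, and the reverse was found in 10. In 63 pairs the antisense gene alone was called, lower in 56 and higher in 7. The sense gene alone was called in 156, and neither in 39. Of the 310 pairs with both genes called, 52.3% moved the same way, against 52.1% of 683 protein-coding pairs that overlap on opposite strands, and 47.0% of 230 when each antisense gene was set beside the nearest protein-coding gene that it does not overlap. Across the 568 pairs, Pearson r was 0.27 and Spearman rho 0.30, and rho was 0.07 for the nearest gene not overlapped and 0.05 for the protein-coding pairs. These describe pairs that share libraries and are not independent. By layout rho was 0.44 for antisense genes inside the partner with shared exons, 0.28 inside without, 0.20 at 5′ overlaps, 0.12 at 3′ overlaps, and 0.87 in the 14 pairs where the partner lay inside the antisense gene.

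**Figure D4:**
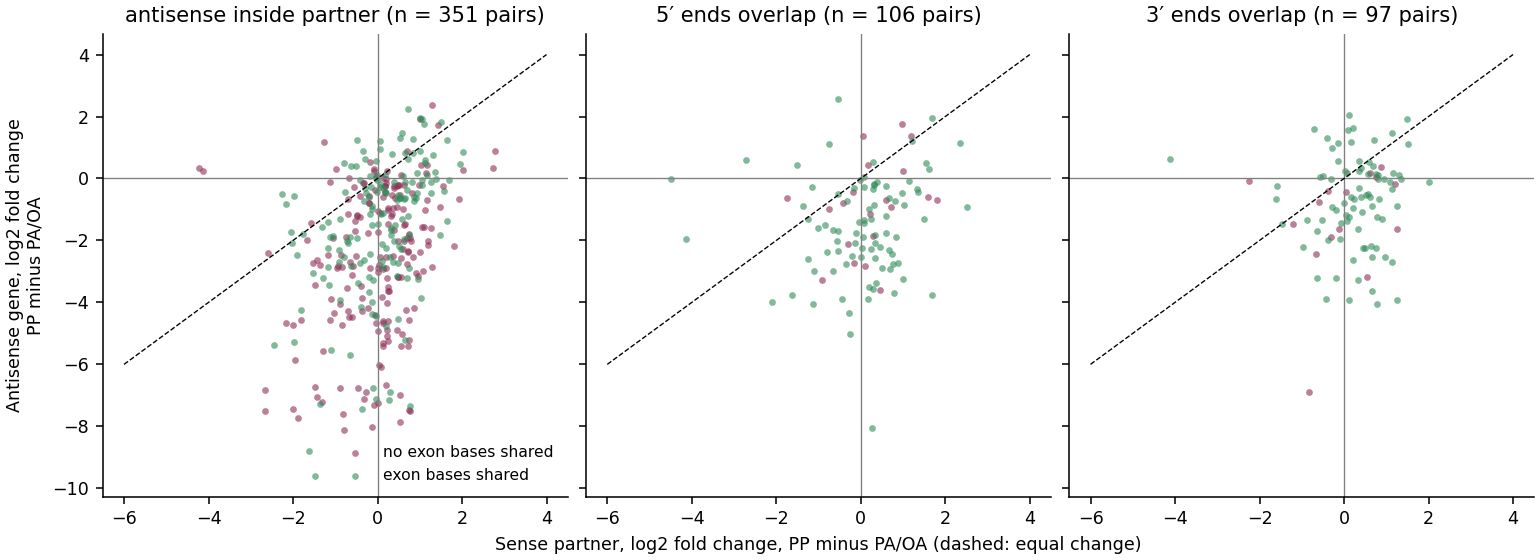
Each point is a pair, with the sense partner's log2 fold change on the x axis and the antisense gene's on the y axis, both PP minus PA/OA, in 3 panels by layout. Colours show whether exon bases are shared, and the dashed line marks equal change. Most points lie below the dashed line, with changes of sense partners between -5 and 3 and of antisense genes down to -10, where values below about -7 belong to genes near 0 in PP and depend on the fit.

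The ratio of antisense to sense counts within each library does not depend on scaling. It was tested with limma over all 2693 opposite-strand pairs of the table, of which 66.6% were called. Among the 568 pairs the ratio was lower in PP in 348, higher in 35 and not called in 185, with a median change of -1.53 in log2. For comparison, 67.5% of 2012 pairs without an antisense gene were called. In the 1197 protein-coding pairs, taking the gene with fewer counts over the one with more, the ratio was lower in 642 and higher in 219 (median -0.65). In pairs whose counts differed at least 8-fold, it was lower in 310 of 507 protein-coding pairs, or 61.1%, with a median of -1.21. The like figure for pairs with at least 8-fold fewer antisense counts was 324 of 500, or 64.8%, with a median of -1.79.

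Kcnq1ot1, the imprinted antisense RNA that starts within Kcnq1 and silences neighbours in cis, had the most counts of all antisense genes. It spans chr7:143203458-143296549 on the minus strand of mm10 as 1 exon. Its level was 233, 238 and 240.4 CPM in PA/OA and 65.5, 58.8 and 59.6 CPM in PP. The groups were far apart, and the change was -1.95 ± 0.06 (SE; edgeR adjusted p = 1.70e-17). Kcnq1 itself, a potassium channel gene, had at most 0.133 CPM in any library and was not tested. Without Kcnq1ot1, the share of counts in the other 1204 genes was still lower in PP, with a difference of -0.0884 percentage points, against -0.111 for the 1205 genes.

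Airn, which silences Igf2r on the paternal chromosome, is the other imprinting RNA in the set (chr17:12741311-12860136, plus strand, overlapping Igf2r at the 5′ ends). It measured 13.1, 15.0 and 13.3 CPM in PA/OA and 9.26, 7.24 and 9.24 CPM in PP, without overlap (-0.69 ± 0.13, edgeR adjusted p = 9.02e-05). Igf2r, the receptor that takes up insulin-like growth factor II, measured 9.92, 9.36 and 9.93 CPM and then 13.4, 15.9 and 15.1 CPM (0.60 ± 0.12, adjusted p = 0.000125 by edgeR). That rise was 0.17 and not called under library size alone (adjusted p = 0.212, edgeR). The antisense to sense ratio, free of scaling, fell by 1.29 in log2 (limma adjusted p = 6.30e-05).

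Tug1 is an abundant RNA that regulates transcription in the nucleus, and its gene model (chr11:3639785-3649673, minus strand) overlaps Morc2a by 180 bases at the 5′ ends. Tug1 measured 112, 111 and 109.9 CPM in PA/OA and 140.5, 149.6 and 157 CPM in PP. Its change was 0.42 ± 0.06 (edgeR adjusted p = 6.64e-07), but -0.01 under library size alone and 0.03 with the abundance trend removed, neither called. Relative to the median of all genes it was 0.51 under either of the first 2 scalings, a value that could hardly differ since a scaling shifts all genes alike. Morc2a, a chromatin-silencing ATPase gene, went from 154, 143 and 143 CPM to 54.9, 48.7 and 52.6 CPM, without overlap (-1.50 ± 0.06, edgeR adjusted p = 3.80e-15). The ratio rose by 1.92 ± 0.08 (limma adjusted p = 2.10e-08), and per length Tug1 had 11.4 CPM per kb against 24.4 for Morc2a in PA/OA and 15.3 against 8.65 in PP. Ints2, an Integrator subunit gene, lies inside the span of Brip1os. Brip1os had 38.0 to 39.5 CPM in PA/OA and 44.3 to 46.9 CPM in PP, with a change of 0.21 that became -0.22 under library size alone and -0.02 under upper-quartile scaling. Ints2 fell from levels of 85.2 to 87.9 CPM to levels of 36.4 to 38.7 CPM, and the ratio rose by 1.40 (limma adjusted p = 1.63e-07).

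Gm16754 rose opposite Keap1, the gene of the adaptor that marks the oxidative stress factor NRF2 for degradation. It spans chr9:21225371-21233046 on the plus strand and overlaps the 3′ end of Keap1. It measured 9.02, 7.53 and 7.61 CPM in PA/OA and 21.8, 20.1 and 18.3 CPM in PP (1.31 ± 0.12, edgeR adjusted p = 2.60e-09). Keap1 measured 42.0, 44.0 and 44.9 CPM and then 35.4, 32.2 and 32.0 CPM (-0.39 ± 0.08, edgeR adjusted p = 9.23e-05). Both pairs of groups were without overlap and moved in opposite directions. On chromosome 18, 1500015A07Rik rose from 13.9 to 15.7 CPM up to 21.4 to 23.3 CPM, a change of 0.62 that was 0.19 and not called under library size alone. Its partner Afap1l1, an actin filament associated protein gene, fell from 3.16 to 3.996 CPM down to 0.126 to 0.253 CPM (-4.11 ± 0.37).

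1700084E18Rik, which has 1 exon, and Lrrc8a, the essential subunit of the volume-regulated anion channel, start beside each other. The antisense gene (chr2:30236795-30238223, minus strand) measured 0.861, 0.167 and 1.00 CPM in PA/OA and 4.08, 4.67 and 3.20 CPM in PP, the largest rise among antisense genes named by the rule (2.56 ± 0.38, edgeR adjusted p = 3.11e-06). Lrrc8a measured 8.35, 6.76 and 9.25 CPM and then 6.10, 6.04 and 4.59 CPM (-0.54 ± 0.17, adjusted p = 0.00725 by edgeR). The fall of Lrrc8a was not called without PA/OA replicate 3, at -0.44, nor with the abundance trend removed, at -0.20.

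In other pairs both genes rose. 2900093K20Rik, a gene of 567 bases inside Oser1, went from 1.37, 1.07 and 1.00 CPM to 5.68, 5.50 and 6.70 CPM (2.37 ± 0.24, edgeR adjusted p = 7.60e-09). Oser1, an oxidative stress responsive gene, rose by 1.29 ± 0.08, and the ratio of the pair rose too, by 1.08 (limma adjusted p = 0.00238). Gm15122 rose by 1.94 inside Dazap1, an RNA-binding protein gene that rose by 1.02. 9130221H12Rik rose by 1.91 inside Gsk3a, the kinase of glycogen synthase, which rose by 1.06. 4930551O13Rik rose by 1.76 inside Optn, an autophagy receptor gene that rose by 1.09. 9530046B11Rik rose by 1.75 at the 5′ end of Suds3, a subunit of the Sin3 corepressor, which rose by 0.97. Gm26770, at the 3′ end of Rhno1, rose from 2.68, 2.93 and 2.89 CPM to 10.8, 11.8 and 12.6 CPM (2.05 ± 0.16, edgeR adjusted p = 1.55e-10), while Rhno1, a gene of the ATR checkpoint, had 0.12 and was not called. Gm4610 rose inside Bcar3, a gene of adhesion signalling, from 4.40, 5.13 and 6.11 CPM to 18.9, 17.7 and 15.2 CPM. Its change of 1.73 and that of Bcar3, 1.43, gave a ratio change of 0.30 that was not called (limma adjusted p = 0.113). Gm4876 rose by 0.46 and Tes, inside its span, by 1.58, and their ratio fell by 1.11 (limma adjusted p = 0.000122). 1110046J04Rik rose by 0.49 inside Serpinb6a, which rose by 1.12, and their ratio fell by 0.63 (limma adjusted p = 0.0009). Gm4673 rose by 0.33 at the 3′ end of Lsr, which rose by 0.41, and their ratio was not called. Under library size alone, Gm4876, 1110046J04Rik and Gm4673 were not called, at 0.03, 0.06 and -0.11.

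The deepest losses were of genes inside partners that fell less. Egfros (chr11:16815431-16830702, minus strand) shares no exon base with Egfr, the gene of the receptor of epidermal growth factor, within which it lies. It measured 5.17, 6.73 and 6.25 CPM in PA/OA, and in PP it had 0.168 CPM in replicate 1 and 0 in the others. Those are 539 counts against 4, a ratio of CPM of 119 with an exact 95% counting interval of 46.1 to 438, and all 4 counts came from PP replicate 1. Egfr went from 158, 149.9 and 149.8 CPM to 87.0, 75.9 and 83.5 CPM (-0.89 ± 0.06, edgeR adjusted p = 1.19e-11). Zbtb20, a liver transcriptional repressor gene, carries both Gm9968 and Gm15713. Gm9968 measured 2.04, 4.80 and 3.50 CPM in PA/OA and 0 in each PP library, at least 90.01-fold lower against a floor of 3 counts over the group, and Gm15713 had 162 counts against 1 (ratio 143, interval 25.3 to 5676). Zbtb20 went from 196, 207 and 205 CPM to 82.5, 65.5 and 71.9 CPM (-1.47 ± 0.07, edgeR adjusted p = 2.22e-14).

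5830432E09Rik, inside the phosphatase gene Ptpre, had 1.57 to 2.20 CPM in PA/OA and 0 in each PP library, at least 52.1-fold lower, and Ptpre fell by 1.62. A930006L05Rik, inside the zinc-finger gene Zbtb38, had 422 counts against 6, all 6 from PP replicate 1 (ratio 62.0, interval 28.3 to 170), and Zbtb38 fell by 1.95. Gm15991, inside Psd3, had 375 counts against 6 (ratio 55.1, interval 25.1 to 151), and Psd3, an exchange factor gene for ARF GTPases, fell by 0.65. Gm16351, inside the adhesion adaptor gene Sorbs2, had 287 counts against 5 (ratio 50.6, interval 21.4 to 157), and Sorbs2 fell by 1.30. 1700001D01Rik was the exception among these 8, since its partner Sh3rf1, a scaffold gene of JNK signalling, had 0.05 and was not called. It had 171 counts against 2 (ratio 75.4, interval 20.6 to 627). Intervals and bounds cover counting error only and take each count as independent. Among antisense genes with 1 to 20 counts in a library, 52.7% to 56.1% had an even count, and the reason was not tested. Where counts are not independent, the intervals could be too narrow. These few PP counts made the ratios depend on single libraries. For Gm16351, with 4 of its 5 PP counts in replicate 1, the ratio was 177 without that library and 33.0 without PP replicate 3. For Gm15991 it was 116 without PP replicate 1 and 35.8 without PP replicate 2. For Gm15713 it became a bound of at least 31.0 without PP replicate 2, which held its only PP count, and was 93.1 without PP replicate 3. Without PP replicate 2, a deep library, the value was 77.3 for Egfros, 49.0 for 1700001D01Rik and 40.3 for A930006L05Rik, and the bounds were 58.5 for Gm9968 and 33.8 for 5830432E09Rik. Leaving out PP replicate 3 gave 77.5 for Egfros, 40.4 for A930006L05Rik, and bounds of 58.6 for Gm9968 and 33.9 for 5830432E09Rik.

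**Figure D5:**
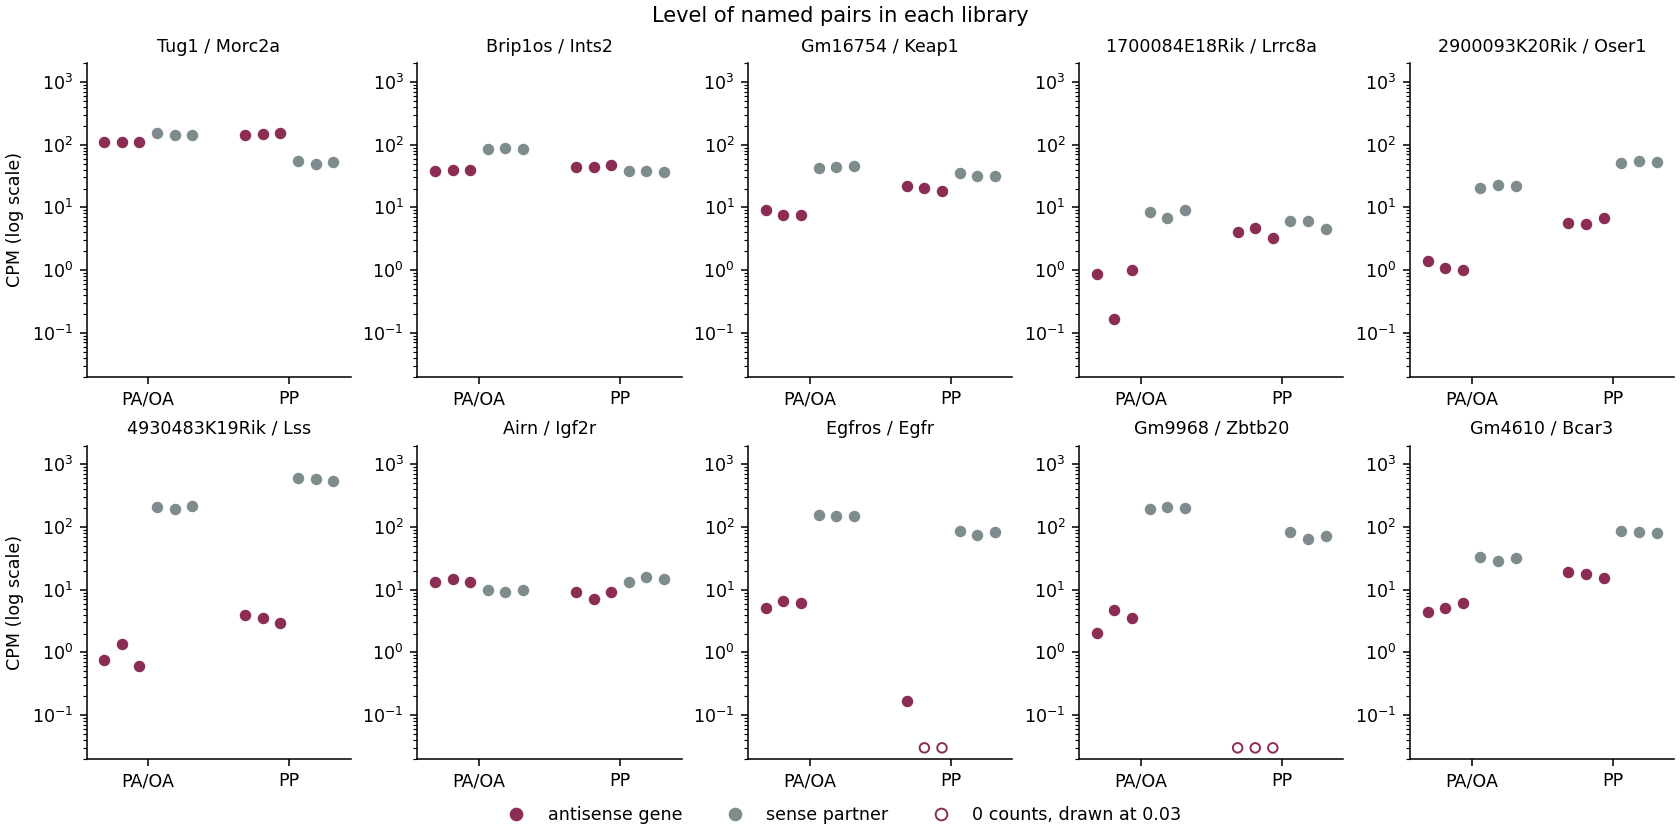
The y axis gives CPM on a log scale for 10 pairs in each of 3 PA/OA and 3 PP libraries, with the antisense gene in purple and the sense partner in grey. Open circles are libraries with no count, drawn at 0.03. Morc2a is at 154 CPM in PA/OA replicate 1 and at 54.9 CPM in PP replicate 1, where Tug1 is at 112 and 140.5 CPM (its own change is -0.01 under library size alone), while Gm9968 is at 0 in all PP libraries with Zbtb20 at 65.5 to 82.5 CPM.

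Further pairs moved apart or together. Gm37305 fell at the 5′ end of Ccnl1, a cyclin gene of splicing speckles, from 5.10, 5.76 and 5.57 CPM to 0.168, 0.651 and 0.364 CPM (-3.75 ± 0.32, edgeR adjusted p = 6.78e-10). Ccnl1 rose from 71.1, 83.8 and 68.7 CPM to 237, 255 and 231 CPM (1.69 ± 0.07, edgeR adjusted p = 2.18e-15), and the ratio fell by 5.61. Gm28809 fell by 1.01 inside Cd9, a tetraspanin gene that rose by 1.13. 1700006J14Rik fell together with Hmga2, a chromatin architecture gene of growing cells, from 17.5, 16.9 and 18.7 CPM to 0.968, 0.796 and 1.71 CPM (-3.92 ± 0.20, edgeR adjusted p = 9.07e-14). Hmga2 fell by 0.89, and the ratio of the pair by 3.10. Gm4117, of which 52997 exon bases were counted, fell by 1.90, from 19.3 to 21.04 CPM down to 5.01 to 6.15 CPM, at the 3′ end of the DNA repair gene Xrcc4. Abundant antisense genes that were not called were Rab10os at 23.3 to 29.4 CPM (0.17, adjusted p = 0.124), Gm16185 inside Slc25a36 (-0.24, adjusted p = 0.0773) and 1700109K24Rik inside Rbfox2 (0.24, adjusted p = 0.0804), all by edgeR.

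A list of 120 metabolic genes held genes of lipid, sterol and glucose metabolism, AMPK and the clock, and 16 antisense genes overlapped a gene of it. In the test, 3 were higher, 2 lower, 4 not called and 7 had too few counts, beside 35.1% higher and 39.9% lower over all genes, so that the 3 higher of 9 tested are near that share. With the abundance trend removed 6 were higher and 1 lower (36.1% and 36.4% of all genes), and under library size alone 1 and 2 (20.6% and 56.7% of all genes). 4930483K19Rik, opposite the 3′ end of the lanosterol synthase gene Lss, measured 0.765, 1.36 and 0.607 CPM in PA/OA and 3.997, 3.47 and 2.95 CPM in PP (1.92 ± 0.31, edgeR adjusted p = 1.14e-05). Lss rose as well, from 209, 197 and 215 CPM to 613, 583 and 549 CPM (1.49 ± 0.06, edgeR adjusted p = 8.22e-16), and their ratio was not called (0.49, limma adjusted p = 0.228). Gm48342, inside the gene of the early sterol enzyme Hmgcs1, had 1.24, 1.13 and 1.39 CPM in PA/OA and 0.505, 0.688 and 0.255 CPM in PP (-1.37 ± 0.45, adjusted p = 0.00859 by edgeR), a call lost with the abundance trend removed at -0.36. Hmgcs1 rose from 83.3 to 94.2 CPM up to 268.7 to 295 CPM (1.65 ± 0.06), and the ratio fell by 3.10 (limma adjusted p = 0.00014).

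Hk1os lies inside Hk1, the gene of hexokinase 1, and measured 1.88, 1.10 and 0.929 CPM in PA/OA and 2.27, 2.53 and 2.33 CPM in PP. Its rise of 0.86 ± 0.31 (edgeR adjusted p = 0.0173) was not called without PA/OA replicate 2 (0.75) or without PA/OA replicate 3 (0.67), nor under library size alone (0.42). Hk1 rose by 2.01, and the ratio fell by 1.09 (limma adjusted p = 0.0102). Opposite the glucose transporter gene Slc2a1, which rose from 195 to 205 CPM up to 799.7 to 830.5 CPM (2.01 ± 0.05), lie Gm12867 and Gm12868. Neither was called, at 0.27 (adjusted p = 0.354) and -0.10 (adjusted p = 0.849, both edgeR), and both ratios to Slc2a1 fell, by 1.72 and 2.09. Gm14508 at the AMPK subunit gene Prkab1 had 4.66 to 5.96 CPM in PA/OA and 4.59 to 6.95 CPM in PP, which overlap, while Prkab1 rose by 0.76. B130046B21Rik, at the 3′ end of the AMPK subunit gene Prkag1, rose by 1.19 (edgeR adjusted p = 0.012), a call lost without PA/OA replicate 1 (0.91), without PP replicate 2 (1.02) and under library size alone (0.75). 4732471J01Rik, a long model over the hormone-sensitive lipase gene Lipe, fell from 4.46, 5.13 and 4.75 CPM to 1.43, 0.977 and 0.946 CPM (-2.10 ± 0.25, edgeR adjusted p = 1.45e-07). Its sense partner by the rule is not Lipe but Ceacam2, which lies inside its span. Ceacam2 fell by 2.27 (edgeR adjusted p = 0.000368), a call lost with the abundance trend removed at -1.13. The ratio of that pair was not called (0.10, limma adjusted p = 0.865). For Lipe itself no change is given here.

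Of 30 antisense RNAs with a described role, 7 were in the set, of which 1 was higher, 2 lower and 4 not tested, too few to set beside the shares over all genes. The 2 lower were Kcnq1ot1 and Airn, and the higher 1 was Brip1os, whose direction flipped under library size alone (-0.22). Hnf4aos, antisense to the hepatocyte master factor gene Hnf4a, had 48 counts in PA/OA and 4 in PP (ratio 10.6, interval 3.87 to 40.4). PA/OA replicate 1 held 30 of the 48, and the ratio was 6.12 without it and 6.88 without PP replicate 2. In the fit without a filter Hnf4aos was lower (edgeR adjusted p = 0.000833). Hnf4a fell from 68.4 to 77.5 CPM down to 25.1 to 27.9 CPM (-1.42 ± 0.08, edgeR adjusted p = 2.92e-13). Gm15441, antisense to Txnip, the arrestin that restrains glucose uptake, had 8 counts against 2, a ratio of 3.53 whose interval, 0.704 to 34.1, includes no change, while Txnip fell by 2.55. It was not called without a filter (edgeR adjusted p = 0.474). Tsix, the antisense RNA of Xist, had 4, 0 and 8 counts in PA/OA and none in PP, at least 3.53-fold lower, a bound of 1.71 without PA/OA replicate 3, and it was lower without a filter (edgeR adjusted p = 0.0478).

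Genes that process antisense transcripts were read from lists of other genes of the pathway. Of 32 tested genes that degrade or end nuclear antisense and promoter-upstream transcripts, 19 were lower, 9 higher and 4 not called, with a median of -0.24 against -0.09 for all genes, of which 39.9% were lower and 35.1% higher. Under library size alone 23 were lower and 2 higher, where 56.7% of all genes were lower and 20.6% higher and their median was -0.52. Ints1, a large Integrator subunit gene, fell by 1.32 and the exosome genes Exosc2 and Exosc1 by 1.95 and 1.24. Rbm7, of the complex that brings nuclear transcripts to the exosome, rose by 1.15. Of 21 tested genes that edit, cut or sense double-stranded RNA, 9 were lower, 7 higher and 5 not called, with a median of -0.05, near the shares and the median over all genes. Under library size alone 14 were lower and 5 higher, beside the same 56.7% and 20.6%. Ago2, the slicing Argonaute, rose by 1.63, while Dgcr8, the partner of Drosha in microRNA processing, fell by 3.01. Dhx9, a helicase gene, fell by 1.21 and Eif2ak2, the kinase that senses double-stranded RNA, by 1.39. Each of these 8 calls was made by edgeR at an adjusted p of 1.46e-11 or less.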

How the data were processed

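RNA-seq counts of 6 AML12 libraries were analysed (3 PA/OA, 3 PP). Per the submitters' processing notes, reads were assigned with featureCounts on mm10, and DESeq2 1.16.1 was used by the authors. The deposited values are raw counts per gene. For strand setting, library type and annotation release, a statement was not given in the sources used here. Antisense genes, partners and gene lists were chosen with earlier results of these data known. Genes of the whole table were tested with edgeR 4.0.16 (filterByExpr, TMM, glmQLFTest, Benjamini-Hochberg, threshold 0.05) in R 4.3.3. Ratios log2((antisense + 0.5)/(sense + 0.5)) were tested with limma 3.58.1 over all opposite-strand pairs. Shares were compared by exact permutation, counting ratios by exact Clopper-Pearson 95% intervals. Overlaps used the spans of the table, exon overlaps GENCODE M21. The testing scripts were tested on simulated counts. Genes were named by rule: the largest changes in each direction at an average log2 CPM of 0 or more with groups apart, the 8 highest levels, pairs called in opposite or the same directions, overlaps with the metabolic list, described antisense RNAs, the partners, and up to 4 genes per pathway list. Deviations of libraries with the same number correlated at 0.01, 0.00 and -0.02. With 3 libraries per group, this cannot settle whether libraries of the same number were prepared together. Alternatives were DESeq2 1.42.0 and limma-voom, other scalings and filters, an abundance-trend correction (lowess span 0.4), halved counts and each library left out. One gene pair that the naming rule holds is not reported here.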

Additional observations from a re-analysis of the deposited data

How the results depend on the processing

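The depth limits the rarer antisense genes, since 558 of 1205 had under 50 counts in all. With DESeq2 as the tool, 45 antisense genes were higher and 335 lower, and with limma-voom 53 and 360. With counts halved, 44 antisense genes were higher and 252 lower, and the ratio was higher in 31 pairs and lower in 247. Under library size alone the counts were 26 antisense genes and 248 partners higher and 545 partners lower, with 262 pairs called in the same and 89 in opposite directions. With the abundance trend removed, 135 antisense genes were higher, 221 lower, and 79 pairs opposite. At a minimum of 1 CPM, 187 antisense genes were lower, the ratio was lower in 187 pairs, and 94 pairs moved the same and 77 opposite ways. Fewer genes entered at that minimum, so these counts do not measure a weaker change. The share called over all genes is not given for it, nor for DESeq2, limma-voom, halved counts, the replicate block or left-out libraries. With 50 or more summed counts, 270 partners were higher and 186 lower, since fewer genes entered, and with an overlap of at least 50% of the antisense gene 22 ratios were higher. The share of counts changed by -0.112 percentage points, by -0.119 over protein-coding counts, and over the 1205 genes by -0.111 with Kcnq1ot1 and by -0.0884 without it. The part of antisense counts in 5′ overlapping genes, 5.86 percentage points higher in PP, changed by -1.19 without Tug1, a setting chosen after seeing the data. Directions reversed under library size alone for Tug1 (-0.012), Gm4673 (-0.11), Lsr (-0.024), Arntl (-0.080), Brip1os (-0.22), Slc25a36 (-0.26) and Rbfox2 (-0.22). They reversed under upper-quartile scaling for Brip1os (-0.024), Slc25a36 (-0.0644) and Rbfox2 (-0.023), and with the trend removed for Slc25a36 (-0.18) and Rbfox2 (-0.33). Where no value is given, the cause was not tested. Leaving out 1 library gave 348 to 433 antisense genes lower and 45 to 50 higher, and 314 to 418 ratios lower and 29 to 36 higher. With the replicate number as a block, 44 antisense genes were higher and 333 lower, the ratio was higher in 33 pairs and lower in 344, and 155 pairs moved the same way and 137 apart, and none of the 84 named genes changed its call. The replicate numbers pair nothing that the labels name.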
